A study of Mus musculus with 6 samples.

Results

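The ATP-dependent chromatin remodelers and the genes grouped with them by symbol were followed in mouse bone marrow mesenchymal stem cells depleted of Riok3, a RIO-family atypical kinase. Members were the protein-coding genes of the count table whose symbols begin with Smarc, Arid1, Arid2, Arid4, Arid5 or Ino80, the Chd genes of a single digit, and Bptf, Baz1a, Baz1b, Baz2a, Baz2b, Pbrm1, Brd7, Brd9, Atrx, Ep400 and Srcap. This gave 45 genes of the 22030 in the table, of which 44 passed the filter on low counts. Of the 45, 19 encode a remodeling ATPase and 26 do not. The 4 Arid4 and Arid5 genes share the ARID DNA-binding domain but are known from histone deacetylase and demethylase complexes, and were described apart. The rule did not use any measured value.

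The knockdown group comprised 3 libraries titled siRIOK3 with the genotype RIOK3 knockdown, and the control group 3 libraries titled siNC with the genotype WT. According to the submitters, the depleted cells are stable lentiviral lines. They are termed knockdown in one place and knockout in another, and the controls are termed blank. The labels used here name no sequence of the silencing agent, number of clones, mouse strain or age. Whether the replicates are separate cultures is not stated, and p-values then reflect only the spread between these libraries, which may be technical.

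Total counts lay between 28327612 and 30517261 in knockdown libraries and between 31089006 and 32569544 in control libraries. Riok3 (ENSMUSG00000024404.8, chromosome 18) stood at 32.1, 31.5 and 37.2 CPM (counts scaled to a common library total after TMM normalisation) in knockdown libraries, against 143, 193 and 135 CPM in control libraries. Its log2 fold change was -2.23 (SE 0.178, adjusted p = 0.000127 by edgeR's quasi-likelihood test). All 10 stromal markers were in the table, with summed levels of 484 to 507 CPM in knockdown and 662 to 770 CPM in control libraries. They did not move one way: 5 fell and 3 rose, and Itgb1 held the largest share of the sum, with 243 to 257 CPM in knockdown and 333 to 412 CPM in control libraries. Among those higher in every knockdown library, Pdgfrb had 34.6 to 35.6 CPM in knockdown and 13.5 to 20.4 CPM in control libraries. The 6 haematopoietic markers analysed summed to 46.5 to 51.7 CPM in knockdown and 26.6 to 43.2 CPM in control libraries, and neither of the 2 that could be tested was called. Cd68 made up nearly all of that sum, with 45.4 to 50.3 CPM in knockdown and 24.2 to 41.9 CPM in control libraries. Ptprc, the pan-leukocyte marker CD45, had at most 3 counts in a library. The 4 endothelial markers summed to 8.30 to 8.79 CPM in knockdown and 3.13 to 8.02 CPM in control libraries. The part of these markers in the results below was not tested. In bulk RNA, fewer cells of a type and less RNA per cell cannot be told apart. Control replicate 2 stood apart from the other controls, with a Spearman correlation over genes of 0.963 and 0.968 with them, against 0.996 between controls 1 and 3.

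Remodelers use the energy of ATP to slide, evict or exchange nucleosomes. The SWI/SNF (BAF and PBAF) family mainly slides and ejects nucleosomes and opens enhancers, the ISWI family spaces them evenly, the CHD family includes the NuRD repressor ATPases, and the INO80, SRCAP and EP400 complexes exchange histone variants such as H2A.Z. In mesenchymal progenitors, SWI/SNF complexes are known to act with lineage transcription factors during osteogenic differentiation.

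Of the 44 members tested, 16 fell in the knockdown, 6 rose and 22 did not pass the threshold, an adjusted p under 0.05. Across all 13067 genes tested, 48% were called, 21.1% higher and 26.8% lower, so the share of members called is close to that of all genes. The median log2 fold change of the members was -0.34, against 0.01 over all genes. The levels of the groups did not overlap for 24 of the 44 members, against 62.1% of all genes. A log2 fold change of -1 or less was found for 14 called members, against 19.2% of all genes that were called lower by at least as much. The ATPase genes and the other members differed in their counts: 8 of 18 ATPase genes tested fell and none rose, with a median of -0.68, while of the 26 other members 8 fell and 6 rose, with a median of -0.23. With library totals alone as the scaling, which moved the median of all genes to 0.26 and called 54.3% of them, 32.8% higher and 21.5% lower, the other members had 7 lower, 8 higher and a median of 0.01, and the ATPase genes 7 lower, 0 higher and a median of -0.43. That difference between the members with and without an ATPase was not tested.

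**Figure D1:**
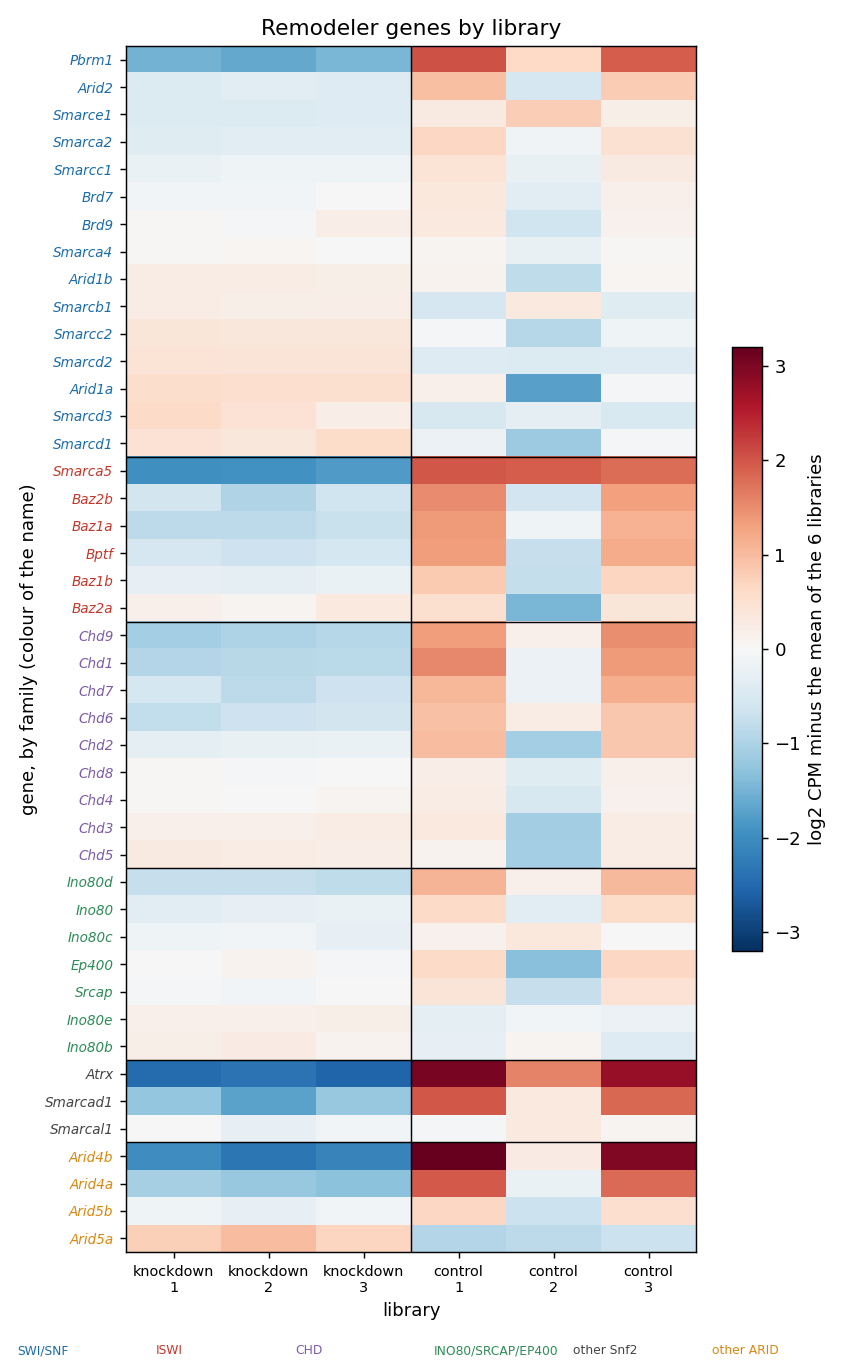
Heat map of log2 CPM of the 44 tested remodeler genes (rows, grouped by family) in the 6 libraries (columns), each gene centred on its mean over the libraries. Blue is below and red above that mean. The darkest rows are Atrx, Arid4b and Smarca5, low in the 3 knockdown libraries, and control replicate 2 lies below the other controls in most rows.

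Control replicate 2 bore on these values directly. Its level had a median ratio of 0.504 to the mean of controls 1 and 3 over the tested members, it was the lowest control library for 35 of them and the highest for 7. Over the 67 other subunits described below, the median ratio was 0.844, with control replicate 2 lowest for 37 and highest for 27. Their median transcript had 2673 bases, against 6434 for the members. No ratio over all genes is given. Over the members the log2 ratio had a Spearman correlation of 0.46 with transcript GC. The part of length and GC in this shift was not tested. Without control replicate 2, 28 members were called lower and 9 higher, and the median was -0.57. Of all genes 71.6% were then called, 35.1% higher and 36.5% lower. Another 15 members, among them Baz1b, Chd2, Arid2, Ino80, Smarcc1, Arid1a and Smarcb1, were called only once it was left out, of the fits that leave out a library.

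In the ISWI family the main ATPase gene fell. Smarca5 (ENSMUSG00000031715.15, chromosome 8), which encodes the ATPase SNF2H, had 48.1, 49.0 and 53.8 CPM in knockdown libraries, against 742, 721 and 649 CPM in control libraries. Its control libraries, including control replicate 2, lay close together, and the lowest stood far above every knockdown library. The log2 fold change was -3.81 (SE 0.136, adjusted p = 1.86e-05). Smarca1 (ENSMUSG00000031099.17, chromosome X), which encodes the other ISWI ATPase, SNF2L, had 0, 0 and 0 counts in knockdown libraries and 5, 1 and 2 counts in control libraries. It was too low to test, so Smarca5 gave nearly all ISWI ATPase reads in both groups. Of the 6 tested ISWI members 4 fell and none rose. Their median log2 fold change was -1.57.

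The other ISWI members encode the large partner subunits that direct these ATPases. Baz1a, the ACF1 subunit of the ACF and CHRAC complexes, had 26.6, 26.6 and 29.1 CPM in knockdown libraries against 122, 43.3 and 103 CPM in control libraries (log2 fold change -1.70, SE 0.355, adjusted p = 0.00707). Bptf, the largest subunit of NURF, had 57.6, 53.1 and 57.2 CPM in knockdown libraries against 210.5, 50.1 and 191 CPM in control libraries (-1.43, SE 0.475, adjusted p = 0.0421). Baz2b had 21.1, 16.4 and 20.5 CPM in knockdown libraries against 91.3, 20.9 and 78.8 CPM in control libraries (-1.72, SE 0.493, adjusted p = 0.0249). For Baz1a all knockdown libraries lay below all control libraries. For Bptf and Baz2b control replicate 2 lay within or below the knockdown range, and both calls were lost when any other library was left out, with adjusted p of up to 0.122 and 0.0879. With GC, adenine and length trends removed, Baz2b had 0.31 and was not called. Baz1b, which encodes the Williams syndrome transcription factor of the WICH complex, had a log2 fold change of -0.66 (adjusted p = 0.182), and -1.01 without control replicate 2 (adjusted p = 2.6e-10). Baz2a, which encodes TIP5 of the nucleolar NoRC complex, had 0.14 (adjusted p = 0.820) and -0.27 without that library (adjusted p = 0.0074).

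The members of the remaining Snf2 ATPases, which act largely apart from those 4 families, held the largest fall. Atrx (ENSMUSG00000031229.17, chromosome X), a heterochromatin and telomere ATPase that works with the histone chaperone DAXX to deposit H3.3, had 10.6, 11.3 and 9.89 CPM in knockdown libraries against 475, 174 and 404 CPM in control libraries. Every control library lay far above every knockdown library. The log2 fold change was -5.05 (SE 0.401, adjusted p = 0.000125), 33.1-fold lower, the largest fall of the 44. Smarcad1 (ENSMUSG00000029920.10, chromosome 6), which acts in heterochromatin maintenance and DNA end resection, had 5.28, 3.82 and 5.31 CPM in knockdown libraries against 49.2, 15.5 and 44.3 CPM in control libraries. Its groups did not overlap (-2.92, SE 0.438, adjusted p = 0.00178). Smarcal1, an annealing helicase at stalled replication forks, had 13.9, 11.7 and 13.1 CPM in knockdown libraries against 13.6, 17.4 and 15.0 CPM in control libraries and was not called (-0.24, adjusted p = 0.217). Daxx itself was not called, with a log2 fold change of 0.12.

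The 300 bases around the annotated start of 6 genes are printed because these genes hold the largest falls (Atrx, Arid4b, Smarca5, Pbrm1) and clear rises (Arid5a, Smarcd2) among the members with a promoter in the table used. They come from RefSeq on GRCm38.p6, from 250 bases before to 50 after the start, 5' to 3' on the gene's strand. Capitals mark matches, on either strand, to any of 5 motifs, none of which is contained in another. The GC box was searched as GGGCGG, which Sp-family factors are known to bind. The box named CCAAT after its letters is bound by NF-Y. The TATA box was searched as TATAAA with no further flanking base. The ETS motif was searched as CCGGAAG without allowance for other bases. The YY1 motif was searched as AANATGGCG with N for any base.
Atrx: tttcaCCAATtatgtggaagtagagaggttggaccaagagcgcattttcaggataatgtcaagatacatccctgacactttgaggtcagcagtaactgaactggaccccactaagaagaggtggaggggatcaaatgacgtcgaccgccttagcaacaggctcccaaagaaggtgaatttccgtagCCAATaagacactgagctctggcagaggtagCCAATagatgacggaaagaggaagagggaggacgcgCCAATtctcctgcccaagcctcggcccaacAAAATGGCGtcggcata
Arid4b: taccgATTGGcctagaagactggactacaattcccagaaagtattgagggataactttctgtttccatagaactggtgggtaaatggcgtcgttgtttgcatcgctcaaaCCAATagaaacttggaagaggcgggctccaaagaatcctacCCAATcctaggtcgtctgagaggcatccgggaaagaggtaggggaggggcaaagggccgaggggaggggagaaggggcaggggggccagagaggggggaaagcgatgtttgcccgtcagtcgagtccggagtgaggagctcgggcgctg
Smarca5: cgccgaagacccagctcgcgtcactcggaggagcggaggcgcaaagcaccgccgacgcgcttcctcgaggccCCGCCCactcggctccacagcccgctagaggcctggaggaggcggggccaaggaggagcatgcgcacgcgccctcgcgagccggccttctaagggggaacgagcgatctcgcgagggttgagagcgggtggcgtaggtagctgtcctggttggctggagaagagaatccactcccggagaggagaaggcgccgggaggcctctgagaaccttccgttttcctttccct
Pbrm1: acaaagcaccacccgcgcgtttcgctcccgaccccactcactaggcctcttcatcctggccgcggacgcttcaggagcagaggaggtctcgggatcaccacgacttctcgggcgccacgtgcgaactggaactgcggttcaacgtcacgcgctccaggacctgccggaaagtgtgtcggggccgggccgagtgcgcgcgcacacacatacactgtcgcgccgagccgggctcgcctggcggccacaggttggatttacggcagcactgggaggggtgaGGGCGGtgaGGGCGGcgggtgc
Arid5a: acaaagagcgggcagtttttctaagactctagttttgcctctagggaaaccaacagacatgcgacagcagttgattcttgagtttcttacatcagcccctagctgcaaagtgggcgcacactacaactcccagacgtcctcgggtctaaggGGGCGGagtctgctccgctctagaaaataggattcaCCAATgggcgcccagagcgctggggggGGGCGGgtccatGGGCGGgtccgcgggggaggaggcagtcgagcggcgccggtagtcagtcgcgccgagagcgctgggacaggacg
Smarcd2: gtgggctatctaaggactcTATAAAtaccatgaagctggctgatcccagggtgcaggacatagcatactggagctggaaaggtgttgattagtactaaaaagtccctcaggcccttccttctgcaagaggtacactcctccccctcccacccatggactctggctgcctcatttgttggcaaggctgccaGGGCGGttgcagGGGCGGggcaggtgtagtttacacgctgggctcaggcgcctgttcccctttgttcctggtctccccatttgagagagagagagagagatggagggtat
They lie at chrX:105929323-105929622 on the minus strand for Atrx, chr13:14063534-14063833 on the plus strand for Arid4b, chr8:80739410-80739709 on the minus strand for Smarca5, chr14:31018888-31019187 on the plus strand for Pbrm1, chr1:36307483-36307782 on the plus strand for Arid5a and chr11:106267583-106267882 on the minus strand for Smarcd2.

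The windows of the genes that fell did not share one composition. Smarca5 and Pbrm1 had 67.7% and 68.0% GC with 32 and 35 CpG dinucleotides, whereas Atrx and Arid4b had 50.3% and 55.7% GC with 11 and 14. The Atrx and Arid4b windows held CCAAT boxes and no GC box, Atrx also a YY1 match, and those of Smarca5 and Pbrm1 a GC box and no CCAAT box. Of the genes that rose, Arid5a had 60.3% GC with 22 CpG, a GC box and a CCAAT box, and Smarcd2 had 55% GC with 4 CpG, a GC box and a TATA box. Across the 42 promoters of the 35 members found in the table, a GC box was present in 34 (81.0%), against 35.7% of all 32851 promoters. Windows of the same member were counted apart even where they overlap, as for Brd9, Chd4 and Chd5. The 32851 promoters were not limited to those of genes tested here. The 10 members without a promoter in the table were Arid2, Arid4a, Baz1a, Chd1, Chd2, Chd3, Chd7, Ino80c, Ino80d and Smarce1. Of the 16 members that fell, 10 had a promoter there, so these figures leave out several falls. A CCAAT box was present in 14 (33.3%), against 37.4%, a TATA box in 3 (7.14%), against 13.6%, and an ETS motif in 6 (14.3%), against 8.86%. A YY1 match was present in 5 (11.9%), against 2.38%. The median GC content of the members' promoters was 65.7%, against 52.7% of all. Over the same 34 members, the Spearman correlation with the log2 fold change was 0.37 for promoter GC and 0.89 for transcript GC, a description over genes that share libraries.

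In the CHD family 4 of 9 genes fell and none rose. The median log2 fold change of the family was -0.74. Chd1 (ENSMUSG00000023852.15, chromosome 17), which binds trimethylated H3K4 at active genes, had 71.5, 74.0 and 76.2 CPM in knockdown libraries against 395, 120.1 and 352 CPM in control libraries (-1.97, SE 0.408, adjusted p = 0.00686). Chd9 (ENSMUSG00000056608.15, chromosome 8), known from work on osteogenic cells as CReMM, had 2.70, 2.91 and 3.06 CPM in knockdown libraries against 14.7, 6.51 and 16.3 CPM in control libraries (-2.11, SE 0.344, adjusted p = 0.00251). Chd7, the ATPase mutated in CHARGE syndrome, had 14.05, 11.7 and 13.1 CPM in knockdown libraries against 43.6, 18.3 and 46.1 CPM in control libraries (-1.47, SE 0.338, adjusted p = 0.0103). With GC, adenine and length trends removed, Chd1 had 0.19 and was not called. All 3 showed complete separation of the groups, with control replicate 2 closest to the knockdown. Chd6 also fell (-1.41, SE 0.205, adjusted p = 0.00157) without overlap. With GC, adenine and length trends removed, Chd6 had -0.24 (adjusted p = 0.168) and Chd9 -0.30 (adjusted p = 0.162).

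The NuRD ATPases did not pass the test. Chd4 (ENSMUSG00000063870.13, chromosome 6), the main NuRD ATPase, had 474, 465 and 492 CPM in knockdown libraries against 550.4, 322 and 514 CPM in control libraries (0.05, SE 0.207, adjusted p = 0.871). Chd3 (ENSMUSG00000018474.19, chromosome 11) had 306, 305.5 and 319 CPM in knockdown libraries against 338, 127 and 322 CPM in control libraries (0.24, SE 0.340, adjusted p = 0.584). In both, the knockdown libraries lay between control replicate 2 and the other controls. Chd5 had 0.38 and Chd8 -0.02. Chd2 had -0.74 (adjusted p = 0.227), with 136.9, 139.9 and 144 CPM in knockdown libraries against 327, 77.8 and 299 CPM in control libraries, and -1.16 without control replicate 2 (adjusted p = 3.8e-11).

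The SWI/SNF family had members called in both directions. Of its 15 genes, 4 rose, 3 fell and 8 were not called, with a median of 0.08 on the log2 scale. With library totals alone 5 rose and 2 fell, with a median of 0.33. Over all genes that scaling called 32.8% higher and 21.5% lower, with a median of 0.26. With upper-quartile scaling 6 rose and 3 fell, with a median of 0.29. Over all genes it called 28.9% higher and 22.5% lower, with a median of 0.21. Smarca4 (ENSMUSG00000032187.17, chromosome 9), which encodes BRG1, had 423, 428 and 415 CPM in knockdown libraries against 433, 349 and 417 CPM in control libraries and was not called (0.08, SE 0.129, adjusted p = 0.639). Smarca2 (ENSMUSG00000024921.18, chromosome 19), which encodes the alternative ATPase BRM, had 48.8, 50.5 and 50.8 CPM in knockdown libraries against 100.2, 59.4 and 89.7 CPM in control libraries (-0.73, SE 0.201, adjusted p = 0.0209). The groups did not overlap for Smarca2, but the call was lost when any library other than control replicate 2 was left out, with adjusted p of up to 0.0805. It was also lost with library totals alone (-0.49, adjusted p = 0.0854), with GC, adenine and length trends removed (-0.10, adjusted p = 0.492) and with the mean GC trend removed (-0.15, adjusted p = 0.446).

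Of the subunits that set the type of SWI/SNF complex, the PBAF subunit Pbrm1 (ENSMUSG00000042323.18, chromosome 14), which encodes the polybromo protein BAF180, fell most. It had 7.06, 6.49 and 7.28 CPM in knockdown libraries against 83.0, 31.4 and 76.7 CPM in control libraries, with no overlap (-3.20, SE 0.370, adjusted p = 0.000595). The PBAF partner Arid2 had 15.7, 16.6 and 16.0 CPM in knockdown libraries against 41.4, 14.7 and 37.2 CPM in control libraries, so that control replicate 2 fell below the knockdown (-0.95, adjusted p = 0.0605), and it had -1.29 without that library. The third PBAF subunit, Brd7, had -0.15 (adjusted p = 0.532), and Brd9, of the non-canonical BAF complex, 0.07 (adjusted p = 0.825). Of the BAF subunits with an ARID domain, Arid1a had 82.8, 82.0 and 79.9 CPM in knockdown libraries against 63.1, 16.9 and 55.3 CPM in control libraries (0.85, adjusted p = 0.140), and Arid1b had 0.38 (adjusted p = 0.228). Neither was called, although the groups of each did not overlap.

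Among the core subunits, 4 genes rose. Smarcd2 (ENSMUSG00000078619.11, chromosome 11), encoding BAF60B, had 80.4, 79.1 and 79.0 CPM in knockdown libraries against 44.4, 44.1 and 44.6 CPM in control libraries (0.84, SE 0.110, adjusted p = 0.000920). All 3 control libraries, control replicate 2 included, agree to within 1 CPM. Smarcd3 (ENSMUSG00000028949.14, chromosome 5), encoding the muscle-associated BAF60C, had 20.3, 18.4 and 15.3 CPM in knockdown libraries against 9.40, 10.8 and 9.53 CPM in control libraries (0.86, SE 0.155, adjusted p = 0.00372). Smarcd1 (ENSMUSG00000023018.6, chromosome 15), encoding BAF60A, had 23.7, 22.1 and 26.05 CPM in knockdown libraries against 15.0, 7.77 and 16.4 CPM in control libraries (0.87, SE 0.273, adjusted p = 0.0341).

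All 3 BAF60 genes were therefore higher in every knockdown library than in any control library. With the GC trend over all genes removed, a correction described below, none of the 3 was called, nor was Smarcc2. Smarcc2 (ENSMUSG00000025369.16, chromosome 10), encoding the scaffold BAF170, had 299.9, 292.8 and 292 CPM in knockdown libraries against 216, 122 and 207 CPM in control libraries (0.70, SE 0.220, adjusted p = 0.0348). Its partner scaffold Smarcc1, encoding BAF155, had 248, 263 and 261 CPM in knockdown libraries against 391.8, 247 and 356 CPM in control libraries and was not called (-0.37, adjusted p = 0.139). Smarce1, encoding the HMG-box subunit BAF57, had 904.5, 906.7 and 917 CPM in knockdown libraries against 1491, 2124 and 1402 CPM in control libraries (-0.88, SE 0.181, adjusted p = 0.00666), with control replicate 2 the highest. Smarcb1, encoding the core subunit SNF5, was not called (0.38, adjusted p = 0.206). The calls of Smarcd1 and Smarcc2 were each lost in 4 of the 6 fits with a library left out, with adjusted p of up to 0.1001 and 0.0970.

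Of the 7 INO80, SRCAP and EP400 genes, 1 fell and 1 rose, with a median of -0.20 that becomes 0.04 with library totals alone or with upper-quartile scaling. The median of all genes became 0.26 with library totals alone and 0.21 with upper-quartile scaling. The ATPases Ino80 (-0.62, adjusted p = 0.0838), Ep400 (-0.20, adjusted p = 0.744) and Srcap (-0.19, adjusted p = 0.631), which exchange or remove H2A.Z, were not called. Each of the 3 was called lower without control replicate 2. The INO80 subunit Ino80d fell, with 7.24, 7.21 and 6.79 CPM in knockdown libraries against 25.4, 13.5 and 24.7 CPM in control libraries (-1.58, SE 0.252, adjusted p = 0.00228). The small subunit Ino80e (ENSMUSG00000030689.16, chromosome 7) rose, with 63.9, 63.9 and 65.1 CPM in knockdown libraries against 46.9, 53.6 and 49.995 CPM in control libraries (0.36, SE 0.117, adjusted p = 0.0391). Its groups did not overlap, but the rise was lost in 5 of the 6 fits with a library left out, with adjusted p of up to 0.127. With the GC trend removed its log2 fold change was -0.27 and not called. Ino80b (0.37) and Ino80c (-0.32) were not called.

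Among the Arid4 and Arid5 genes, both Arid4 genes fell and Arid5a rose. Arid4b (ENSMUSG00000039219.19, chromosome 13), a subunit of the Sin3 deacetylase complex, had 3.85, 3.09 and 3.45 CPM in knockdown libraries against 139.7, 18.3 and 118.8 CPM in control libraries (-4.73, SE 0.737, adjusted p = 0.00208). Arid4a (ENSMUSG00000048118.18, chromosome 12), which encodes an RB-binding subunit of the same complex, had 8.98, 8.08 and 7.53 CPM in knockdown libraries against 73.1, 16.0 and 65.2 CPM in control libraries (-2.65, SE 0.524, adjusted p = 0.00569). In both, control replicate 2 lay between the knockdown and the other controls and did not overlap the knockdown. Arid5a (ENSMUSG00000037447.17, chromosome 1), an RNA-binding protein that stabilises inflammatory mRNAs, had 11.0, 12.9 and 10.3 CPM in knockdown libraries against 3.39, 3.63 and 4.04 CPM in control libraries (1.63, SE 0.160, adjusted p = 0.000285), and was the only member with a log2 fold change of 1 or more. Arid5b, a partner of the demethylase PHF2 that is known in adipogenesis and chondrogenesis, was not called (-0.44, adjusted p = 0.292).

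**Figure D2:**
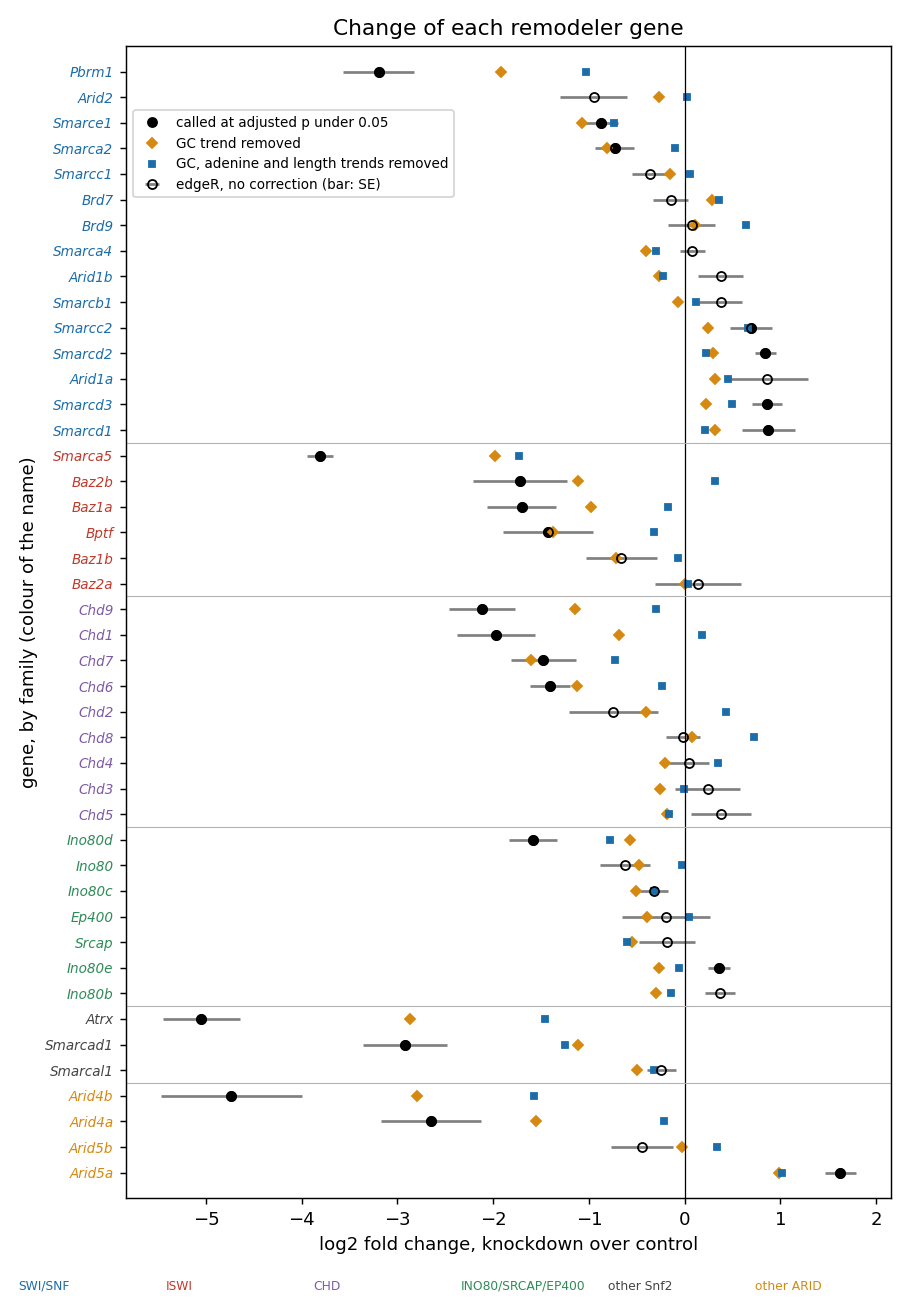
Log2 fold change of each tested member, knockdown over control (x axis), by family (y axis). Circles with SE bars are the edgeR estimates, filled where called, diamonds have the GC trend removed and squares the GC, adenine and length trends. Atrx, Arid4b, Smarca5 and Pbrm1 stay left of 0 and Arid5a right of 0 under both corrections.

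The order of the ATPases by level per length differed between the groups. The authors' FPKM values, which scale counts by gene length and library total, put Smarca5 first of the 19 in control libraries, at 79.8 ± 4.05 FPKM (SD, n = 3), and sixth in knockdown libraries, at 6.90 ± 0.465 FPKM. Smarca4 was the highest in knockdown libraries, at 69.6 ± 0.958 FPKM, and had 54.5 ± 6.77 FPKM in control libraries. Chd4 followed with 63.5 ± 2.11 FPKM in knockdown and 50.9 ± 13.99 FPKM in control libraries, its control spread covering that of Smarca4. Atrx had 0.523 FPKM in knockdown and 14.3 FPKM in control libraries, which moved it to place 16 in the knockdown, against 7 in control. Smarca2 held place 11 in the knockdown and 10 in control, at 3.74 and 5.15 FPKM, far below Smarca4 in both groups. These places are a description, since FPKM takes no account of the composition of the library.

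Pairs of related genes, not all of which share a place in a complex, were compared within each library as a difference of log2(FPKM + 0.1). No scaling of the library changes this difference beyond the small added constant. Base composition can change it, so the difference in log2 fold change between the genes of a pair was also taken from the 4 fits with composition trends removed, an alternative added after the data were seen. Of the 11 pairs without overlap and with both genes tested, 7 kept their direction in all 4 and 4 did not. With 3 libraries a group the exact permutation test cannot give a p under 0.10, 0.133 after adjustment over the 16 pairs compared, so none can pass. For 12 of the 16 pairs the groups did not overlap, but in 1 of them, Smarca1 and Smarca5, the difference rests on a gene listed at 0 and the added constant. Of the other 15 pairs 11 did not overlap. No share over all possible pairs of genes was computed, so these counts are a description. The ATPase difference Smarca2 minus Smarca4 averaged -4.18 in knockdown and -3.41 in control libraries, so BRM transcripts were lower relative to BRG1 before correction. The difference in log2 fold change was -0.81 without correction and lay between -0.41 and 0.26 with correction, so its direction was not kept. The scaffold difference Smarcc1 minus Smarcc2 averaged -0.69 in knockdown and 0.39 in control libraries, so that by FPKM the BAF170 transcript was the higher of the pair in every knockdown library and the BAF155 transcript in every control library. Its difference in log2 fold change lay between -0.60 and -0.31 with correction.

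The CHD, ISWI and ARID pairs are given in the same form. Chd1 minus Chd2 averaged -0.21 in knockdown and 1.08 in control libraries, and Chd7 minus Chd8 averaged -2.29 in knockdown and -0.99 in control libraries. Chd3 minus Chd4 averaged -0.69 in knockdown and -0.98 in control libraries, a difference between groups of 0.29, and the corrected difference in log2 fold change lay between -0.36 and 0.08. Baz2a minus Baz2b averaged 1.95 in knockdown and 0.19 in control libraries, with a corrected difference in log2 fold change between -0.28 and 1.12, and Baz1a minus Baz1b averaged -2.56 in knockdown and -1.51 in control libraries. Arid5a minus Arid5b averaged -1.13 in knockdown and -2.76 in control libraries. Arid4a minus Arid4b averaged 2.39 and 0.90, and Arid1a minus Arid1b -0.55 and -1.16, in the same order. The corrected difference lay between -1.22 and -0.25 for Chd1 and Chd2, and between -2.32 and -1.45 for Chd7 and Chd8. It lay between -1.24 and -0.11 for Baz1a and Baz1b, and between 0.68 and 1.19 for Arid5a and Arid5b. For Arid4a and Arid4b it lay between 1.18 and 1.51, and for Arid1a and Arid1b between 0.58 and 0.78. The groups overlapped for Smarcd1 against Smarcd2, Smarcd2 against Smarcd3, Chd6 against Chd9, and Srcap against Ep400. Brd7 minus Brd9, which did not overlap, also changed direction with correction. No ratio is given for Smarca1 against Smarca5, since Smarca1 was listed at 0 in the knockdown.

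**Figure D3:**
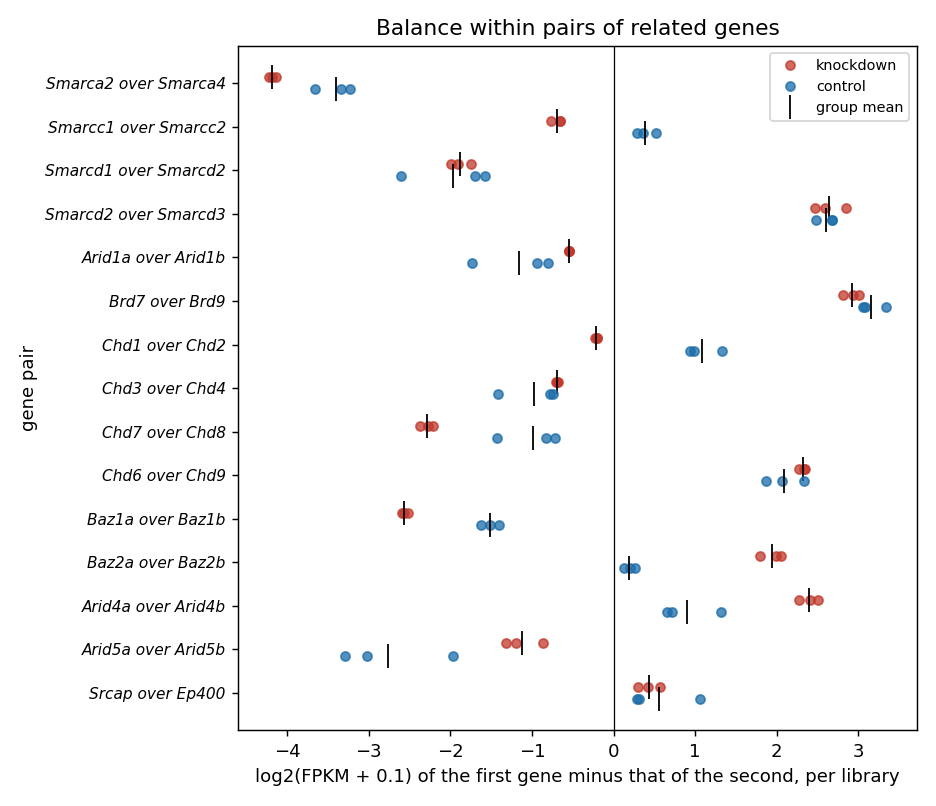
Difference of log2(FPKM + 0.1) between paralogs (x axis) in each library, for the 15 pairs other than Smarca1 and Smarca5 (y axis), with group means as vertical lines and the knockdown libraries drawn above the control libraries. The knockdown and control points of Smarcc1 minus Smarcc2 lie on opposite sides of 0, averaging -0.69 in knockdown and 0.39 in control.

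Base composition of the transcripts moved with these changes. The transcript used for a gene was that with the longest annotated coding sequence. Over the 44 members the Spearman correlation of the log2 fold change with the GC content of the transcript was 0.91 (Pearson 0.89), over the 18 ATPase genes it was 0.93, and over the 13043 tested genes with a transcript it was 0.70. These are descriptions across genes, which share the 6 libraries. Below 45% GC all 9 members fell, with a median of -2.92, against -1.40 for all genes of that band, of which 74.1% fell. Between 45 and 50% 4 of 12 fell, against 31.1% of all genes of that band. Between 50 and 55% 3 of 10 fell, against 8.32% of all genes. From 55% upward 6 of 13 rose and none fell, against 45.8% of all genes higher and 2.04% lower. The medians were -0.68, -0.28 and 0.38 in these bands, against -0.27, 0.27 and 0.57 for all genes. The members had a median GC of 50.8%, against 50.4% of all genes, and were longer, with a median transcript of 6434 bases against 2840.

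**Figure D4:**
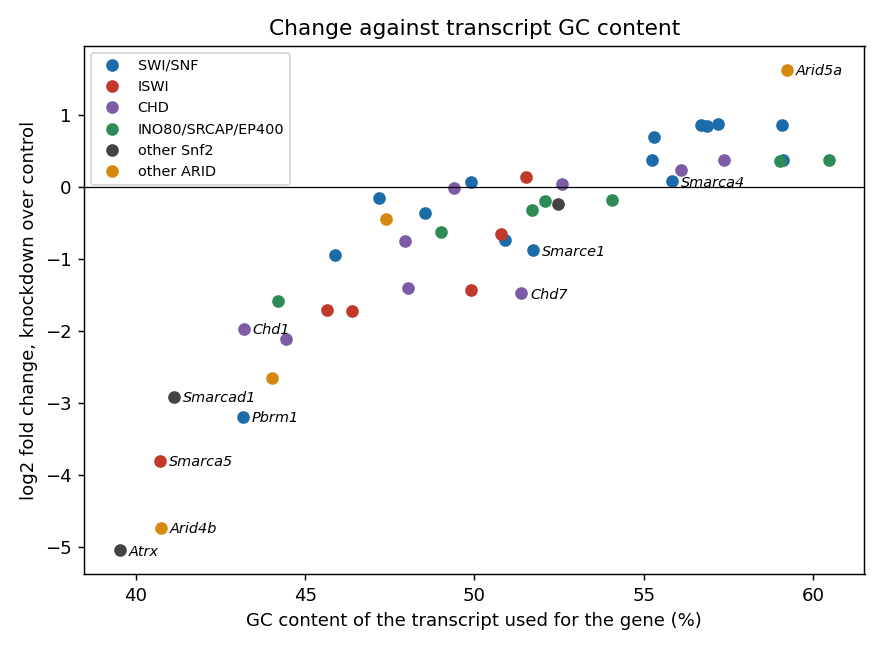
Log2 fold change, knockdown over control (y axis), against transcript GC content in percent (x axis) for the 44 tested members, coloured by family. Members below 45% GC, such as Atrx, Arid4b and Smarca5, lie lowest, and those that rose lie at 55% or more.

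Removing such trends, fitted over all genes, changed which members were called. Among the members a correlation with transcript GC remained, so a trend is called removed only in the sense of that fit over all genes. Its Spearman value was 0.65 with the GC trend removed, 0.54 with GC and length, and 0.39 with GC, adenine and length. What remained was not tested. With the GC trend removed, 14 members fell and 1 rose, with a median of -0.41, against 15.2% of all genes lower and 16.3% higher, 31.6% in all. With GC and length removed 19 fell and 1 rose (18% and 21.5% of all genes, 39.6% in all). With GC, adenine and length removed 9 fell and 6 rose, with a median of -0.06 (15.9% and 18.5% of all genes, 34.4% in all). With the mean GC over a gene's transcripts 12 fell and 3 rose (15.2% and 16.7% of all genes, 31.9% in all). The choice of transcript mattered for some members. Smarca2 had 50.9% GC by the transcript used and 46.8% by the mean, with corrected log2 fold changes of -0.82 and -0.15. Ino80 had 49.0% and 44.2%, with -0.47 and 0.56.

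Pbrm1, Smarca5, Chd7, Atrx, Smarcad1 and Arid4b were called lower without a correction and under each of these 4, and Arid5a was called higher under all. The corrected log2 fold changes lay between -3.24 and -1.46 for Atrx, between -1.98 and -1.35 for Smarca5, between -2.25 and -1.04 for Pbrm1 and between -3.73 and -1.57 for Arid4b. They lay between -1.74 and -0.72 for Chd7, between -1.54 and -0.98 for Smarcad1 and between 0.92 and 1.02 for Arid5a. For these genes other than Chd7, each corrected size was smaller than the uncorrected one. Of the other members that fell, Smarce1, Baz1a, Chd9, Chd6 and Arid4a were called lower under 3 of the 4 corrections, Smarca2 and Ino80d under 2, Bptf and Chd1 under 1 and Baz2b under none. Of the others that rose, Smarcc2, Smarcd2 and Smarcd3 were called higher under 1 of the 4, and Smarcd1 and Ino80e under none. Some members not called without a correction gained a call. Srcap and Smarcal1 were called lower under 2 of the 4, and Smarca4, Arid1b, Baz1b, Ino80 and Ino80c under 1. Chd8 was called higher under 2, and Brd7 and Chd4 under 1. Among the uncorrected fit and these 4 corrections, no member was called in opposite directions. With GC, adenine and length removed, the ISWI family had 1 member lower and none higher (median -0.12), the CHD family 1 lower and 2 higher, and the ATPase genes 5 lower and 2 higher (median -0.20).

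Known subunits and related ATPases that the symbols do not cover were taken from a list of 71 genes, of which 67 were tested. Of these 18 fell, 6 rose and 43 were not called, with a median log2 fold change of -0.03, against 26.8% lower and 21.1% higher over all genes. With the GC trend removed 14 fell and 6 rose, against 15.2% of all genes lower and 16.3% higher. With library totals alone 15 fell and 20 rose, against 21.5% of all genes lower and 32.8% higher. The median was then 0.22, against 0.26 over all genes. Of 12 other Snf2-type ATPases 6 fell and none rose, with a median of -0.99, among them Hells (-4.06, adjusted p = 0.000260), a DNA methylation cofactor, and Hltf (-3.77, adjusted p = 0.000290), a fork-remodeling translocase. Rsf1 (-2.89, adjusted p = 4.3e-05), the partner of SNF2H in the RSF complex, also fell. Mbtd1 (-2.46, adjusted p = 0.000487), of the TIP60-EP400 complex, was the next largest fall, and 9 of 25 genes of the INO80, SRCAP and TIP60 complexes fell and 1 rose. With the GC trend removed 5 of these 25 were lower and 2 higher, among the latter Actr6 (0.81, adjusted p = 0.0398), which fell without correction (-1.63). With GC, adenine and length removed 7 were lower and 2 higher, against 15.9% and 18.5% of all genes. Among those higher was Ing3 (0.47, adjusted p = 0.0310), which fell without correction (-1.36). Of 12 NuRD genes 3 rose and 1 fell, including Gatad2a (1.02, adjusted p = 0.0200) and Mta3 (0.69, adjusted p = 0.00387), and of 13 SWI/SNF genes 2 rose and 1 fell, including Dpf2 (0.98, adjusted p = 0.00728). The SWI/SNF gene that fell, Phf10 (-0.35), was called higher with GC, adenine and length removed (0.68, adjusted p = 0.00204). It was also called higher with the mean GC trend removed (0.94, adjusted p = 0.00465). Actb, whose product is shared by several complexes and is also the cytoskeletal actin, rose by 0.68 (adjusted p = 0.00592). Under the 4 composition corrections Hells lay between -2.95 and -1.27, Hltf between -1.69 and -1.47 and Rsf1 between -1.56 and -0.50, and these and Mta3 were called in all. Mbtd1 lay between -0.98 and -0.34 and was called in 2 (with the GC trend removed, -0.46 and adjusted p = 0.0811). Gatad2a lay between 0.40 and 0.52 and was called in none, Dpf2 was called in 2 and Actb in 3.

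Shared sequence limits the counts of some members. In the GENCODE M21 annotation, more than 10% of the exonic bases of Srcap (61.7%), Smarcd3 (48.2%), Chd2 (18.4%), Ino80e (16.4%) and Smarcd1 (12.7%) are shared with another gene. For Srcap and Chd2 the shared bases are on the same strand, so reads there belong to either gene whatever the strand setting. For Smarcd3, Ino80e and Smarcd1 they are on the opposite strand, and no source used here gives the strand setting of the counting. The counts of these 5 are uncertain. The processed pseudogene Smarca5-ps had 0, 0 and 2 counts in knockdown libraries and 14, 14 and 9 counts in control libraries, and Smarce1-ps1 at most 15 in knockdown and 27 in control libraries.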

How the data were processed

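Titles gave the group and number of each library. Libraries were made with a stranded mRNA kit and sequenced as paired ends on an Illumina NovaSeq, per the labels' protocols. The submitters' processing notes name HISAT2, MultiQC and the build GRCm39, without role or version. The authors deposited raw counts per gene (whole numbers, 22030 genes) and FPKM values (21879 genes). No source used here gives the counting tool, annotation release or any batch.

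Counts were filtered with filterByExpr (13067 genes), scaled by TMM and tested with edgeR 4.0.16 in R 4.3.3 (robust quasi-likelihood, two-sided, no covariates), with Benjamini-Hochberg adjustment over all tested genes. CPM values are TMM-normalised. SE is the log2 fold change over the square root of F. Composition trends (GRCm38, GENCODE M21, loess span 0.3, degree 1) entered as offsets in alternatives. Replicates of every group differed beyond sampling noise. On simulated counts with 100 genes changed per fold size, 97 were called at 4-fold and 58 at 2-fold. The simulation gave every gene the same dispersion and had no library standing apart as control replicate 2 does. These rates therefore need not hold for the members.

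The members and lists were chosen with earlier results of these data known. Values in every library are given by rule for the 8 called members with the most negative and the 6 with the most positive log2 fold change and for the ATPases of 3 paralog pairs. For the list of other subunits, the 4 most negative and the 4 most positive called genes are named. Values of further members, and of further genes of that list, were chosen for print after they were seen. Alternatives tried were RLE, upper-quartile and library-total scaling, other filters, DESeq2 1.42.0, limma 3.58.1 (voom with sample weights, and trend on log2 FPKM), a replicate block, each library left out, and the composition offsets.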

Additional observations from a re-analysis of the deposited data

How the results depend on the processing

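Of the 22 called members, 16 kept the call in all 6 fits that left out a library, and Baz2b, Bptf, Ino80e, Smarca2, Smarcc2 and Smarcd1 lost it in some. Those fits gave 3 to 9 members higher and 13 to 28 lower, with a median log2 fold change between -0.57 and -0.28, 1647 to 4701 of all genes higher and 2693 to 4891 lower, and 4 to 21 other subunits higher and 15 to 33 lower, with a median between -0.17 and 0.01. They gave 12 to 14 paralog pairs without overlap.

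Same-numbered libraries did not deviate together (correlations -0.076, 0.044 and 0.052), and the other combinations lay between -0.107 and 0.12. This cannot exclude a pairing, since deviations were taken from means of 3 libraries and control replicate 2 stood apart. With the replicate block 5 members were higher and 16 lower, 43 of 44 members kept their side of the threshold, and 2390 of all genes were higher and 3225 lower.

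Scaling moved the median of all genes by 0.21 (upper quartile) and 0.26 (library totals). Of all genes, TMM called 2758 higher and 3508 lower, upper-quartile scaling 3771 and 2938, and library totals 4280 and 2814. More genes were also higher with voom (4672), and with the GC offset without control replicate 2 (4501), and fewer with the GC offset and block (1562). Fewer were lower with the GC offset (1988), GC, adenine and length (2075), mean GC (1984), GC with block (1539), log2(FPKM + 1) (1976) and log2(FPKM + 0.1) (1974).

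Higher members numbered 1 with the GC offset (16.3% of all genes), with GC and length (21.5%), and with GC and block (12%). They numbered 3 with mean GC (16.7%) and 10 with log2(FPKM + 1) (40.5%). Lower members numbered 9 with GC, adenine and length (15.9% of all genes) and 26 with voom (36.8%). With GC without control replicate 2 they numbered 34 (27.9%). They numbered 10 with log2(FPKM + 1) (20.2%) or log2(FPKM + 0.1) (20.1%), and 9 with FPKM unfiltered (11%). Higher other subunits numbered 12 with upper-quartile scaling (28.9% of all genes) and 20 with library totals (32.8%). With GC and length they numbered 10 (21.5%), and with GC and block 1 (12%). With GC without control replicate 2 they numbered 15 (33.7%), and with voom 20 (35.8%). Either filtered FPKM fit gave 23 (40.5% and 39.8%), and the unfiltered fit 16 (18%). Their lower calls numbered 11 with mean GC (15.2% of all genes) and 9 with GC and block (11.8%). With GC without control replicate 2 there were 29 (27.9%), and with voom 33 (36.8%). Their median became 0.16 with upper-quartile scaling, 0.22 with library totals, and 0.24, 0.30 and 0.21 in the FPKM fits.

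Of 1004 log2 fold changes of members under alternatives, 112 had the opposite sign to the reported one, 90 of them called in neither fit. The 22 called in at least 1 of the 2 fits are given here, with the cause not tested. GC with control replicate 2 left out gave Arid1b -0.52, Baz2a -0.39, Brd7 0.18, Chd3 -0.59, Chd4 -0.39, Chd5 -0.51, Ino80b -0.19, Ino80e -0.24 and Smarca4 -0.50. GC with adenine and length gave Baz2b 0.31, Brd7 0.36, Chd1 0.19, Chd8 0.73 and Ino80e -0.061. GC with length gave Arid1b -0.42 and Smarca4 -0.55, mean GC gave Chd8 0.57 and Ino80e -0.18, and GC alone or with block gave Ino80e -0.27. Leaving out control replicate 2 gave Chd4 -0.16 and Baz2a -0.27, the lowest of a range that reached 0.44 with control replicate 1 left out. The paralog difference between groups became -0.29 for Chd6 against Chd9 with log2(FPKM + 1), and -0.24 for Smarcd1 against Smarcd2 without control replicate 2, the lowest of a range that reached 0.27 without control replicate 3. At this depth Smarca1 could not be tested.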
